A study of Rattus norvegicus with 8 samples.

Results

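The urea cycle, ornithine and glutamine genes were 10 genes of nitrogen metabolism, chosen by name from the probes of a rat expression array: Nags, Cps1, Otc, Ass1, Asl, Arg1, Glul, Oat, Gls2 and Slc25a2. Each was represented by 1 probe, and all 10 were among 17226 features tested, 12693 of which carried a gene name. Liver RNA was measured on 8 arrays, 1 for each animal. The furan group comprised 4 male Fisher 344 rats gavaged with 8 mg of furan per kg body weight per day, on 5 days a week for 90 days, and killed 24 hours after the last dose. Furan is a liver toxicant and carcinogen of rodents. The control group comprised 4 male rats of the same strain, and no vehicle or sham dosing of these animals is described in the labels. Rats of both groups were aged 18 weeks, with no engineered allele in the labels. The series asks whether changes that furan brings about in the liver persist, and the arrays compare treated with control livers at a single time.

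Ammonia released by amino acid breakdown is toxic, and the liver disposes of it in series. Hepatocytes around the portal vein turn most of it into urea through the urea cycle, while a narrow rim of hepatocytes around the central vein captures what escapes as glutamine. Nags makes the activator of Cps1, which feeds ammonia into the cycle. Otc, Ass1, Asl and Arg1 carry out the following steps, the last of which releases urea and ornithine. Glul is glutamine synthetase, and Oat, which degrades ornithine to an intermediate shared with proline and glutamate, lies in the same central rim. Gls2 is the liver glutaminase, which frees ammonia from glutamine in periportal cells. Slc25a2 is known in humans as a mitochondrial ornithine carrier.

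Every level below is a log2 processed signal relative to the 75th percentile of its array, which stands at 0, and every change is furan minus control on that scale. Levels of different genes come from different probes and cannot be compared with each other. The array annotation places the probes of Nags (chr10:91213944-91214110), Cps1 (chr9:66002449-66003777), Otc (chrX:24619355-24624560) and Ass1 (chr3:10620727-10622079) on the rn4 build over spans longer than the probe itself, so each crosses an exon junction and reads spliced transcript. They are shown because they are the sequences that reported the early steps of the cycle, written as in the array annotation, with no base singled out.
Nags: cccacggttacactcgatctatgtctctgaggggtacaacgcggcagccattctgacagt
Cps1: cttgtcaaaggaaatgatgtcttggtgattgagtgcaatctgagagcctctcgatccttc
Otc: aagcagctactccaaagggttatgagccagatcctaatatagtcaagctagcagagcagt
Ass1: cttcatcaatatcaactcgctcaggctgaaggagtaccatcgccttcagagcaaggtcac
The probes of Asl (chr12:27720030-27720089), Arg1 (chr1:21011150-21011209), Oat (chr1:192026857-192026916), Gls2 (chr7:1495216-1495275) and Slc25a2 (chr18:30537166-30537225) each match an unbroken stretch of 60 bases, and the Glul probe is listed there as unmapped.

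The 75th percentile of the processed signal lay between 1256 and 1596 intensity units on the furan arrays and between 827 and 1057 on the control arrays. No spot was saturated. Correlations between arrays, across the tested features, ran from 0.979 to 0.993 within the furan group, from 0.981 to 0.992 within the control group and from 0.952 to 0.979 between the groups. Each slide held animals of both groups: slide 1 carried furan and control arrays 1 and 2, and slide 2 carried numbers 3 and 4. Replicate spots varied most on furan array 1 (median coefficient of variation 20.9%) and control array 2 (14.6%). Over all features, limma with Benjamini-Hochberg adjustment called 3099 higher and 3023 lower at an adjusted p below 0.05, so that 50.6% of the calls were higher, against 33.5% when the background was corrected by normexp. The number of arrays limits the precision.

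Genes of urea synthesis, ornithine breakdown and glutamine synthesis had lower levels in furan-treated livers, most of them past the test. The furan mean lay below the control mean for 10 of 10 genes, with a median change of -0.76, against -0.03 over all features. The call was made for 7 genes, all lower (Oat, Slc25a2, Otc, Ass1, Glul, Asl and Cps1), and not for Arg1, Gls2 and Nags. None was higher by limma, with 0 higher at an unadjusted p below 0.05 either. Over all features 35.5% were called in either direction and 17.5% were called lower. For 5 genes (Otc, Ass1, Asl, Oat and Slc25a2) the furan and control values did not overlap, against 37.5% of all features. Oat had the largest change among the 9 genes that were well above background on all 8 arrays, 6 of which were called. Slc25a2 entered the test through its control arrays alone, so it had to differ, and it adds nothing to the count. Because whole liver was measured, fewer cells of a type and less RNA per cell cannot be told apart.

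**Figure D1:**
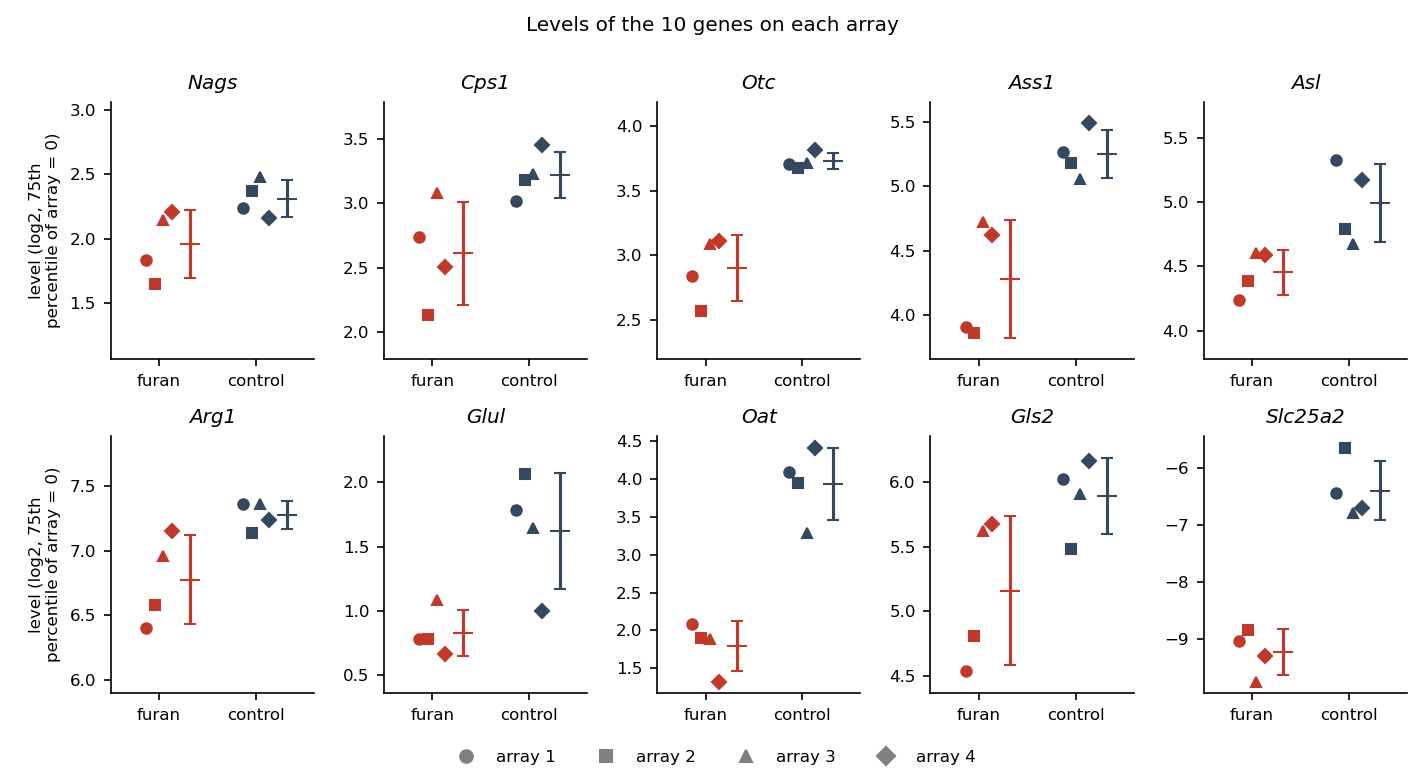
Level of each of the 10 genes on each array (log2, with the 75th percentile of the array at 0), furan arrays left in red and control arrays right in blue, with marker shape giving the array number and bars the mean and SD (n = 4 each). Vertical ranges differ between panels. The furan points of Otc, Ass1, Asl, Oat and Slc25a2 lie below all control points, while those of Nags, Cps1, Arg1, Glul and Gls2 overlap them.

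Entry into the cycle was lower at Cps1, by a margin that few other settings kept. Nags, the synthase of N-acetylglutamate, had levels of 1.83, 1.65, 2.15 and 2.20 on furan arrays 1 to 4 and of 2.24, 2.37, 2.48 and 2.16 on control arrays 1 to 4. Furan arrays 1 and 2 were the low ones, and furan array 4 lay within the control range. The change was -0.35 ± 0.15 (SE, n = 4 each; limma adjusted p = 0.0994), which was not called. Cps1, the mitochondrial carbamoyl phosphate synthetase that commits ammonia to the cycle, had levels of 2.74, 2.13, 3.08 and 2.51 on the furan arrays and of 3.02, 3.18, 3.23 and 3.45 on the control arrays. Furan array 3 lay within the control range and the other furan arrays below it. The change was -0.61 ± 0.20 (SE; limma adjusted p = 0.0458). The Cps1 call was lost on leaving out furan array 1, 2 or 4 or any control array, with adjusted p between 0.0549 and 0.109 and changes between -0.67 and -0.44.

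Otc and Ass1 changed most among the 6 cycle genes. Otc, which joins carbamoyl phosphate to ornithine in the mitochondrion, had levels of 2.84, 2.57, 3.09 and 3.11 on furan arrays 1 to 4, against 3.71, 3.67, 3.71 and 3.82 on control arrays 1 to 4. The control values were tightly grouped, and the highest furan value stayed below them. The change was -0.83 ± 0.14 (SE; limma adjusted p = 0.0031), a 1.78-fold lower signal. Ass1, the cytosolic argininosuccinate synthetase, had levels of 3.91, 3.86, 4.72 and 4.63 on the furan arrays and of 5.26, 5.18, 5.06 and 5.50 on the control arrays. Furan arrays 1 and 2 lay well under furan arrays 3 and 4, and all furan values lay under the controls. The change was -0.97 ± 0.22 (SE; limma adjusted p = 0.0111), a 1.96-fold lower signal. Otc and Ass1 were called under each of 20 alternative settings, with changes from -0.90 to -0.72 for Otc and from -1.12 to -0.83 for Ass1.

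Asl and Arg1, of the last steps, had smaller changes than Otc and Ass1, and differences between cycle genes were not tested. Asl, which splits argininosuccinate into arginine and fumarate, had levels of 4.24, 4.38, 4.61 and 4.59 on the furan arrays and of 5.32, 4.79, 4.68 and 5.17 on the control arrays. The groups did not overlap, although furan array 3 and control array 3 were close. The change was -0.54 ± 0.17 (SE; limma adjusted p = 0.0379), and the call was lost on leaving out furan array 1 or 2 or control array 1 or 4 (adjusted p between 0.0773 and 0.0939). Arg1, the liver arginase, was spotted 10 times on each array. Its levels were 6.40, 6.58, 6.96 and 7.16 on the furan arrays and 7.37, 7.14, 7.36 and 7.24 on the control arrays. Furan array 4 lay just inside the control range. The change was -0.50 ± 0.17 (SE; limma adjusted p = 0.0509), which was not called; leaving out furan array 4 brought the adjusted p to 0.0189, and quantile normalization reduced the change to -0.08. Over the 6 cycle genes, 4 were called lower and 2 were not, with a median change of -0.57 and a range from -0.97 to -0.35. Over all features 17.5% were called lower and 35.5% in either direction, and the difference from these shares was not tested. Across the alternative settings between 2 and 5 of the cycle genes were called lower.

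Both enzymes of the central rim were lower, Oat by 4.38-fold and Glul by 1.73-fold. Oat had levels of 2.08, 1.90, 1.89 and 1.32 on furan arrays 1 to 4, against 4.09, 3.94, 3.28 and 4.41 on control arrays 1 to 4. Each furan value lay more than the whole control range below the control mean of 3.93 ± 0.47 (SD, n = 4), with a furan mean of 1.80 ± 0.33. The change was -2.13 ± 0.26 (SE; limma adjusted p = 0.00101), called under each of 20 alternatives with values from -2.35 to -1.97. Glul had levels of 0.78, 0.78, 1.09 and 0.67 on the furan arrays and of 1.78, 2.06, 1.64 and 1.00 on the control arrays. Control array 4 was the low control and lay within the furan range. The change was -0.79 ± 0.22 (SE; limma adjusted p = 0.0234), and the call was lost on leaving out furan array 2 or 4 or control array 1, 2 or 3 (adjusted p between 0.0521 and 0.0610).

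Gls2 and Slc25a2 gave the least certain values. Gls2 had levels of 4.54, 4.80, 5.62 and 5.68 on the furan arrays and of 6.02, 5.48, 5.91 and 6.16 on the control arrays. Furan arrays 1 and 2 lay below the controls and furan arrays 3 and 4 among them. The change was -0.73 ± 0.28 (SE; limma adjusted p = 0.0748), which was not called, and without furan array 4 the adjusted p was 0.0438. Slc25a2, read from a single spot, was not well above background on any furan array and was so on all 4 control arrays, at levels of -6.44, -5.64, -6.79 and -6.70. With the furan values raised to the lowest signal called well above background on each array, it was at least 2.17-fold lower. The fit to its measured values gave a limma adjusted p of 0.000558, but a probe that passed the filter in the control group alone had to differ, so this call adds nothing to the bound. The measured means were -9.22 in the furan group and -6.39 in the control group.

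**Figure D2:**
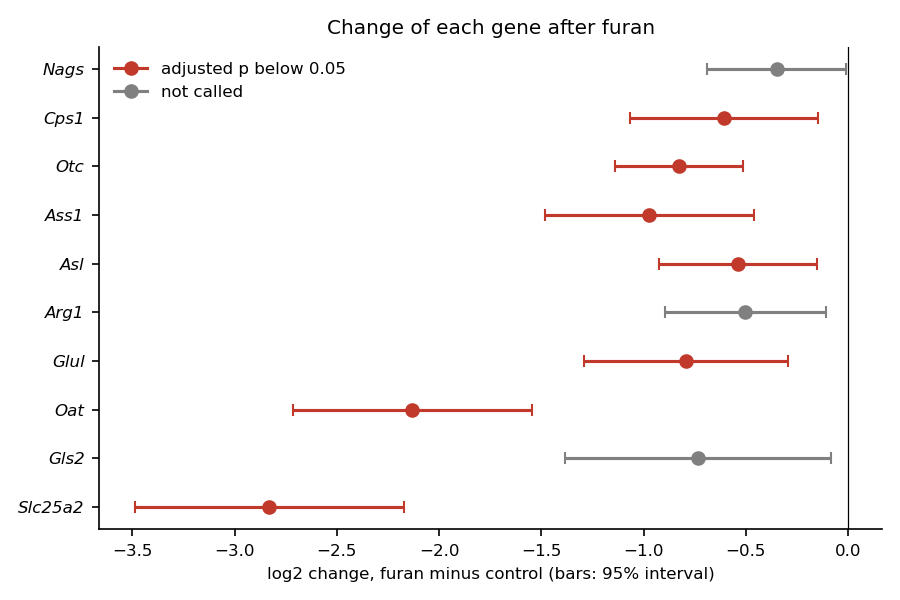
Change of each gene in furan-treated against control livers (log2, furan minus control), with 95% intervals from the limma fit (n = 4 each). Genes called at an adjusted p below 0.05 are in red and the others in grey. Oat, at -2.13, lies left of the other genes well above background on all arrays, and the fitted value of Slc25a2 is not a bound because its furan arrays were not well above background.

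The scale of the arrays bears on these values, since the 75th percentile differed between the groups. In processed signal before scaling, the groups stayed apart for 2 of the 10 genes. Oat had 6298, 5956, 5388 and 3148 intensity units on furan arrays 1 to 4 and 14111, 14953, 10298 and 20891 on control arrays 1 to 4. Otc had 10655, 9447, 12378 and 10824 intensity units on the furan arrays and 10842, 12442, 13863 and 13880 on the control arrays, and these overlapped. Slc25a2 was the other gene whose unscaled groups stayed apart, at 1.70 to 3.51 intensity units in the furan group, where it was at background, and 9.43 to 19.5 in the control group. Before scaling, the mean was higher in the furan group for 4 of the 10 genes. These means were 5636 in furan and 4800 in control livers for Nags, 9090 and 9050 in that order for Cps1, 31739 and 30662 for Asl, and 159691 and 149240 for Arg1. Every change given here is therefore relative to the rest of the array. Unscaled groups that stayed apart do not make the change of Oat or Slc25a2 an absolute one.

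Changes were larger on slide 1 than on slide 2 for 9 of the 10 genes, the exception being Oat. The change of Ass1 was -1.34 on slide 1 and -0.60 on slide 2, that of Arg1 -0.76 and -0.24, that of Glul -1.14 and -0.45, and that of Gls2 -1.08 and -0.39, each in slide order. The change of Oat was -2.02 on slide 1 and -2.24 on slide 2. Those of Nags (-0.56 and -0.14), Cps1 (-0.67 and -0.54), Otc (-0.99 and -0.67), Asl (-0.75 and -0.33) and Slc25a2 (-2.89 and -2.77) had the same sign on both slides too. The difference between slides was not tested.

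Whether periportal and central enzymes differed in their change was examined in 14 pairs of genes, by the difference of their levels within each array and an exact two-sided permutation test over the 70 splits of the arrays. The change of Oat was larger than that of Cps1 by 1.53 ± 0.32 (SE), of Otc by 1.30 ± 0.34, of Ass1 by 1.16 ± 0.39, of Asl by 1.59 ± 0.28, of Arg1 by 1.63 ± 0.42 and of Nags by 1.78 ± 0.41. It was also larger than that of Glul, its neighbour in the central rim, by 1.34 ± 0.42. In each of these 7 pairs the furan and control arrays did not overlap, and the exact permutation p was 0.0286, the smallest that 4 against 4 arrays can give. Adjusted over the 14 pairs these p were 0.0571, so no pair passed the threshold. With 4 arrays per group, a pair could pass after adjustment only where most of the 14 pairs reached the smallest p. No difference between a cycle gene and Glul passed the test: it was 0.19 ± 0.34 for Cps1 minus Glul, -0.04 ± 0.29 for Otc, -0.18 ± 0.37 for Ass1, 0.25 ± 0.33 for Asl, 0.29 ± 0.30 for Arg1 and 0.44 ± 0.24 for Nags, with exact permutation p between 0.171 and 0.943. Gls2 minus Glul gave 0.06 ± 0.45 (exact permutation p = 0.914). These intervals are wide, and the arrays cannot show whether the changes were alike.

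Promoters are shown for Otc, Ass1 and Oat, the genes above background on all arrays whose calls held under every alternative run, as the 250 bases before the gene start in RefSeq on the GRCr8 build. A promoter entry was found for 9 of the 10 genes. Capitals mark matches on either strand to any of 4 motifs. The TATA box was searched as TATAAA. The CCAAT box was searched by its own letters. A C/EBP-type motif was searched as TTNNGNAA. The core of the TCF/LEF motif was searched as CTTTGA. No matches overlapped in the windows shown.
Otc, chrX:15202474-15202723, minus strand: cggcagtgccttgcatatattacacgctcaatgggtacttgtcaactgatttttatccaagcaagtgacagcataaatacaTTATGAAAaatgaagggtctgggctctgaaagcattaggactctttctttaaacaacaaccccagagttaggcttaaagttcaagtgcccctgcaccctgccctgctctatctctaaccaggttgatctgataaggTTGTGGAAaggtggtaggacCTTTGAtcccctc
Ass1, chr3:35149480-35149729, plus strand: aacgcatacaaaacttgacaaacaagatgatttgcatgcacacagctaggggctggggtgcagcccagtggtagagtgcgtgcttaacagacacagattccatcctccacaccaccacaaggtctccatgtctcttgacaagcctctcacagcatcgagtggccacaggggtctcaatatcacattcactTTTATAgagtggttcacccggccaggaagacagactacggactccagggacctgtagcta
Oat, chr1:196797755-196798004, minus strand: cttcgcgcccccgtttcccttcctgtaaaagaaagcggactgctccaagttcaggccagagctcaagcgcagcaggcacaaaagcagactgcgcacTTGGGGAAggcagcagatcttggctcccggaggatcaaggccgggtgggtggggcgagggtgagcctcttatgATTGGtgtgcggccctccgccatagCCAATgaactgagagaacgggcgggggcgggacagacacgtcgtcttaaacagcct
The Otc window held the C/EBP-type motif at positions -169 and -33 and the TCF/LEF core at -13 from the gene start. The Ass1 window held a TATA box on the minus strand at -60. The Oat window held CCAAT boxes at -56 and, on the minus strand, at -81, and the C/EBP-type motif at -154. Of 33469 rat promoters, 12.9% held the TATA box, 34.0% the CCAAT box, 37.2% the C/EBP-type motif and 13.9% the TCF/LEF core. Among the 9 genes with an entry the counts were 1 (Ass1), 4 (Glul, Oat, Gls2 and Slc25a2), 2 (Otc and Oat) and 3 (Cps1, Otc and Glul), in that order. A match is a run of letters and not a shown binding site.

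Of 12 urea cycle partners 10 were tested, 3 were called lower and none higher by limma (0 higher at an unadjusted p below 0.05), and the median change was -0.34. By comparison, 17.5% of all features were called lower and 35.5% in either direction. The difference from these shares was not tested. Slc7a2, a cationic amino acid transporter that brings arginine and ornithine into cells, changed by -0.84 ± 0.16 (SE; adjusted p = 0.0053). Slc3a2, the heavy chain of several amino acid transporters, changed by -0.68 ± 0.13 (adjusted p = 0.0062). Slc25a13, the mitochondrial aspartate and glutamate carrier that supplies the aspartate Ass1 uses, changed by -0.47 ± 0.13 (adjusted p = 0.0219), and lost the call on leaving out furan array 2 or control array 1 or 4, with changes of -0.38, -0.41 and -0.46. The main mitochondrial ornithine carrier Slc25a15 and the second arginase Arg2 were not well above background on all arrays of either group and were not tested.

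Ornithine and proline genes split by direction. Of 17 genes of ornithine, proline and polyamine metabolism 16 were tested. Calls were made for 5 higher and 3 lower genes, against 35.5% of all features called in either direction. The median change was -0.07 (0.0011 without furan array 1 and -0.14 without furan array 4). Odc1, ornithine decarboxylase and the entry to polyamine synthesis, had levels of 1.92, 1.67, 1.59 and 1.62 on furan arrays 1 to 4 and of 0.29, 0.24, 0.31 and 0.17 on control arrays 1 to 4. It was 2.72-fold higher (change 1.45 ± 0.11, SE; limma adjusted p = 0.000183), and its groups lay far apart. Aldh18a1, which makes the shared precursor of proline and ornithine from glutamate, rose by 1.52 ± 0.31, Paox, a polyamine oxidase, by 0.76 ± 0.11, and Srm, spermidine synthase, by 0.68 ± 0.13. Prodh and Prodh2, which break down proline and hydroxyproline, changed by -1.52 ± 0.30 and -0.94 ± 0.17. Oaz2, an antizyme that holds ornithine decarboxylase in check, changed by -0.38 ± 0.10, and lost the call without control array 2 (-0.34) and with scaling to the median of each array (-0.41). Thus Oat, which degrades ornithine, was lower and Odc1, which decarboxylates it, was higher in the same 4 furan livers. Other probes of Aldh18a1, Prodh, Srm and Oaz2 were called in the same direction.

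The 26 genes of ammonia, glutamate and glutamine handling held 23 tested genes. By the brightest probe of each, 3 were called higher and 4 lower, against 35.5% of all features called in either direction, and the median change was -0.12. The 4 include Pfas, whose probes disagreed, and with the mean of tested probes 3 were called lower. Rhbg, an ammonia channel of central hepatocytes, had levels of -0.25, 0.15, -0.21 and -0.30 on the furan arrays and of -1.72, -1.74, -2.25 and -2.10 on the control arrays. It was 3.48-fold higher with no overlap (change 1.80 ± 0.16, SE; limma adjusted p = 0.000365), so that it moved opposite to Glul and Oat. Ctps1, which spends glutamine on cytidine nucleotides, rose by 1.06 ± 0.15, and Gfpt1, which spends it on amino sugars, by 0.78 ± 0.20. The other tested probe of Ctps1 changed by 1.08 and was not called (limma adjusted p = 0.0584). The Gfpt1 call was lost with outlier spots kept (0.53, adjusted p = 0.153). Slc38a2, a glutamine carrier, changed by -0.71 ± 0.13. Gpt, alanine aminotransferase, changed by -0.92 ± 0.27 and lost its call without furan array 1 (-0.75) or 2 (-0.84) or control array 2 (-0.84) or 4 (-0.81). Slc1a2, a glutamate transporter of the central rim, changed by -1.14 ± 0.36 and lost its call without furan array 2 (-1.24) or 4 (-1.11) or control array 1 (-1.04), 2 (-1.16) or 4 (-1.06). For Pfas, a glutamine-using enzyme of purine synthesis, the brightest probe changed by -1.05 and its other tested probe by 0.63, both called, so no direction is given for that gene.

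**Figure D3:**
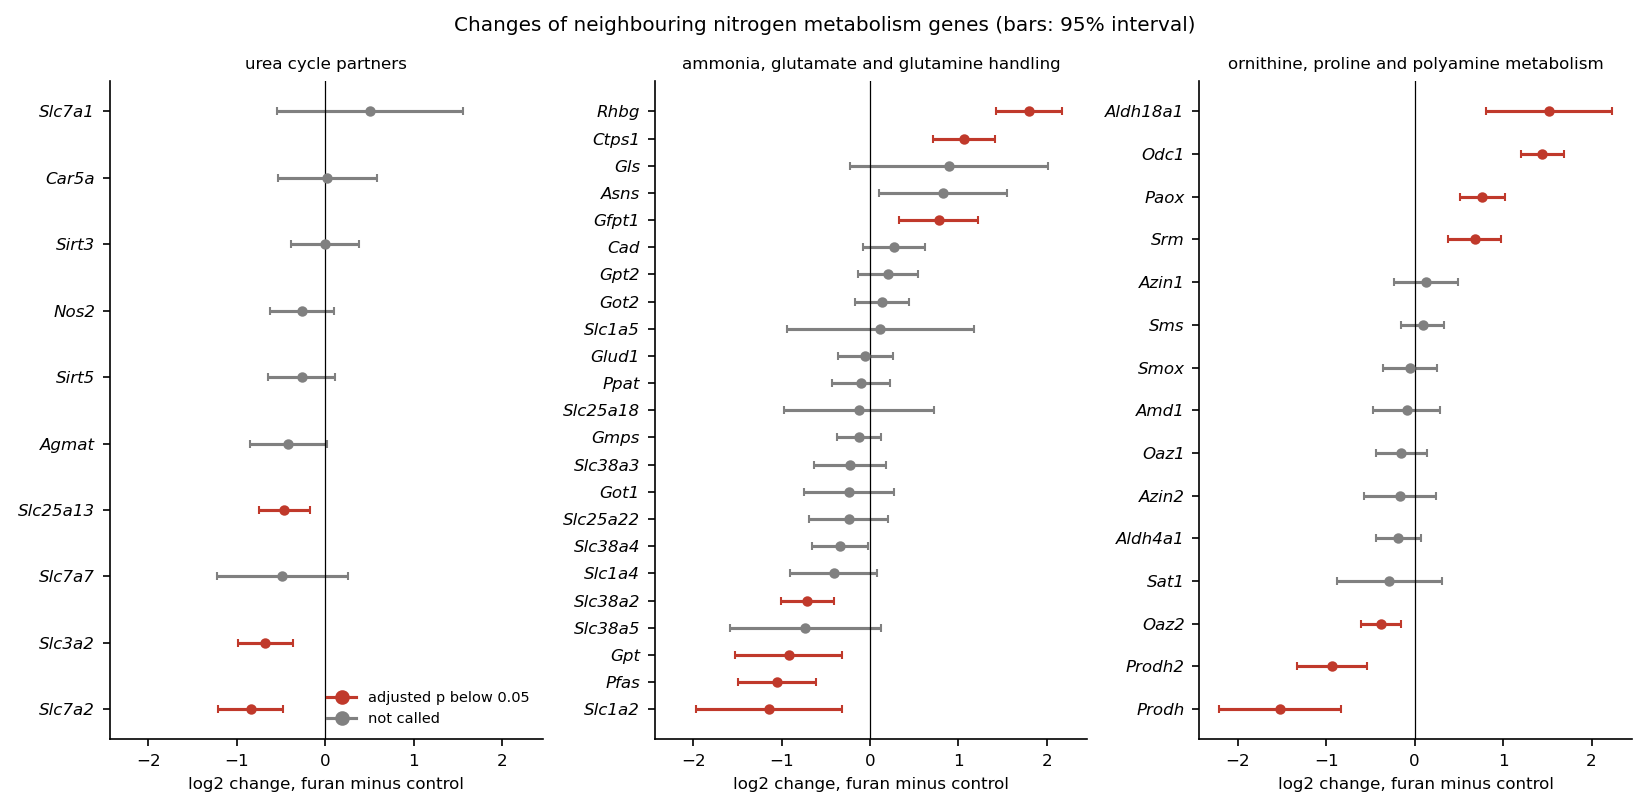
Change (log2, furan minus control) with 95% interval for tested genes of the partner lists, red where called at an adjusted p below 0.05 and grey otherwise (n = 4 each). No urea cycle partner was called higher, while Rhbg at 1.80 and Odc1 at 1.45 lie right of 0 and Prodh at -1.52 lies left of it.

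Of 24 regulators of the cycle and of Glul 23 were tested, 8 were called lower (13 with normexp background correction) and none higher by limma (0 higher at an unadjusted p below 0.05), and the median change was -0.37. Here too the shares to set beside this are the 17.5% of all features called lower and the 35.5% called in either direction. The difference from them was not tested. Tbx3, a transcription factor under Wnt control, changed by -1.76 ± 0.23 (SE; adjusted p = 0.0013), Hnf4a, a factor that sustains hepatocyte identity, by -0.98 ± 0.20, Nr3c1, the glucocorticoid receptor, by -0.96 ± 0.12, and Gcgr, the glucagon receptor, by -0.93 ± 0.18. The other tested probe of Nr3c1 changed by -0.22 and was not called. Glucocorticoids and glucagon are known inducers of urea cycle genes. Rspo3, a secreted enhancer of Wnt signalling, changed by -0.91 ± 0.20 (adjusted p = 0.0084). It was named because its profile was picked as near to that of Glul. Cebpa, a C/EBP factor, had a change of -0.43 ± 0.20 (adjusted p = 0.123), which was not called. Its change was -0.91 on slide 1 and 0.04 on slide 2. Cebpa, Srm, Oaz2, Gfpt1 and Aldh1a1 were named after their values were seen.

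Other markers of the zones moved both ways. Of 17 tested pericentral genes 4 were called lower and 3 higher, with a median change of -0.51. For this list and the periportal one below, the share of all features called was 35.5% in either direction and 17.5% lower. The median was -0.33 without furan array 1, and 8 were called lower with normexp. Cyp1a2, a cytochrome P450, changed by -1.89 ± 0.30 and Cyp27a1, a bile acid synthesis enzyme, by -0.90 ± 0.19. Aldh1a1, which oxidizes retinal, rose by 1.07 ± 0.21, and Gstm3, a glutathione transferase, by 1.17 ± 0.38. The Gstm3 call was lost on leaving out any furan array but 4 or any control array but 4, with changes from 0.85 to 1.26. Cyp2e1, the P450 that oxidizes furan, had a change of -0.34 ± 0.21 (adjusted p = 0.233) and Cyp7a1, the entry enzyme of bile acid synthesis, of -0.62 ± 0.47 (adjusted p = 0.333), and neither was called. Of 16 tested periportal genes, with Gls2 among them and the 6 cycle genes left out, 6 were called lower and 2 higher, with a median change of -0.69. Apoa4, an apolipoprotein, changed by -2.21 ± 0.19, Pck1, the gluconeogenic PEPCK, by -1.16 ± 0.20, Igf1 by -1.11 ± 0.19 and Uroc1, of histidine breakdown, by -0.97 ± 0.18. Aldh1b1, a mitochondrial aldehyde dehydrogenase, rose by 1.19 ± 0.20 and Cdh1, E-cadherin, by 0.86 ± 0.18. Medians were thus negative in both zone lists, and the difference between the zones was not tested.

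Hepatocyte markers, which check the tissue label, were bright signals whose median level per array lay between 7.09 and 7.52 on the furan arrays and between 7.91 and 8.16 on the control arrays. Of 22 tested hepatocyte markers, 16 were called lower and 1 higher, against 17.5% lower and 35.5% in either direction over all features. The median change was -0.70. With quantile normalization 8 were called lower and 3 higher, with a median change of -0.16. F9 changed by -1.57, Itih3 by -1.36, Fga by -1.28 and Fgg by -1.14, while Apoa1 rose by 0.72. The summed linear level of the list, in multiples of the 75th percentile, was 2868, 2905, 3385 and 3740 on furan arrays 1 to 4 and 5614, 4785, 4837 and 5229 on control arrays 1 to 4. Furan arrays 1 and 2, which had the lowest Nags, Otc, Ass1, Asl, Arg1 and Gls2, were also lowest here. The part of the hepatocyte list in the changes of the 10 genes was not tested.

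Markers of other cells moved less uniformly. Of 16 tested biliary and ductular genes, 4 were called higher and 1 lower, against 35.5% of all features called in either direction. The median change was 1.13. The summed level was 4.87 to 16.4 on the furan arrays and 3.77 to 10.5 on the control arrays. The median was 0.71 without furan array 1, 1.77 with 7 called higher without control array 2, and 0.31 with normexp. A gene that entered the test through its furan arrays alone had to be higher. With only probes well above background on all 8 arrays kept, the median was 0.60, with 5 called higher. Epcam rose by 1.79 ± 0.36, Cd24 by 2.97 ± 0.77, Cldn7 by 1.54 ± 0.45 and Sox9 by 0.48 ± 0.13, and Slc4a2 changed by -0.53 ± 0.11. The calls of Cd24 (without furan array 2, 2.71, or control array 3, 2.70), Cldn7 (without furan array 2, 1.47, or control array 1, 1.48, 3, 1.61, or 4, 1.28) and Sox9 (without control array 1, 0.43) were each lost in those settings, and that of Sox9 also with normexp (0.17, adjusted p = 0.217). Krt19, a keratin of bile ducts, had a change of 0.72 ± 1.23 (adjusted p = 0.679), with levels of 0.71 on furan array 1 and 0.32 on control array 2 against -4.33 to -1.72 on the other arrays. Of 18 intestinal and mucin genes 8 were tested and 1, Fabp2, was called, at 2.50 ± 0.21 higher, and the list summed to between 11.5 and 18.5 on the furan arrays and between 7.77 and 13.1 on the control arrays, while Muc2 and Vil1 were not well above background on all arrays of either group.

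No gene was called by limma among 15 macrophage markers (summed level 52.4 to 65.5 on furan arrays, 55.1 to 77.1 on control arrays), 6 tested lymphocyte markers (0.40 to 0.84 and 0.30 to 0.64, in the same order) or 11 endothelial markers (16.2 to 19.2 and 7.50 to 31.5). For the lists of this paragraph, the share of all features called was 35.5% in either direction and 17.5% lower. Control array 1 stood alone in the endothelial sum, at 7.50 against 26.4 to 31.5 on the other control arrays. Without it 7 of the 11 endothelial genes were called lower, with a median change of -0.74 against -0.06 on all arrays, and 1 macrophage gene was called lower. In that setting 2437 of all 17226 features were called lower. With normexp 3 endothelial genes were called lower, and so were 5544 of all 17226 features. At an unadjusted p below 0.05 there were 1, 0 and 1 lower genes in these lists and 0 higher. The smallest p in the lists belonged to Cd14 (-0.45, adjusted p = 0.0537), Lck (0.44, adjusted p = 0.407) and Cdh5 (-0.40, adjusted p = 0.0774). Of 13 tested stellate cell and matrix genes 1, Dpt, was called, at -1.09 (summed level 11.9 to 31.5 on furan arrays, 13.1 to 24.6 on control arrays), and of 7 erythroid genes 1, Slc4a1, at -1.14 (354 to 474 and 457 to 946), a call lost without furan array 2 (-0.997). The part of these lists in the changes of the 10 genes was not tested. With control array 2 and furan array 1 left out, a choice made after the data were seen, 4 of the 10 genes were called, which were Otc, Ass1, Oat and Slc25a2. Over all features 4959 of 17226 were called in that setting.

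**Figure D4:**
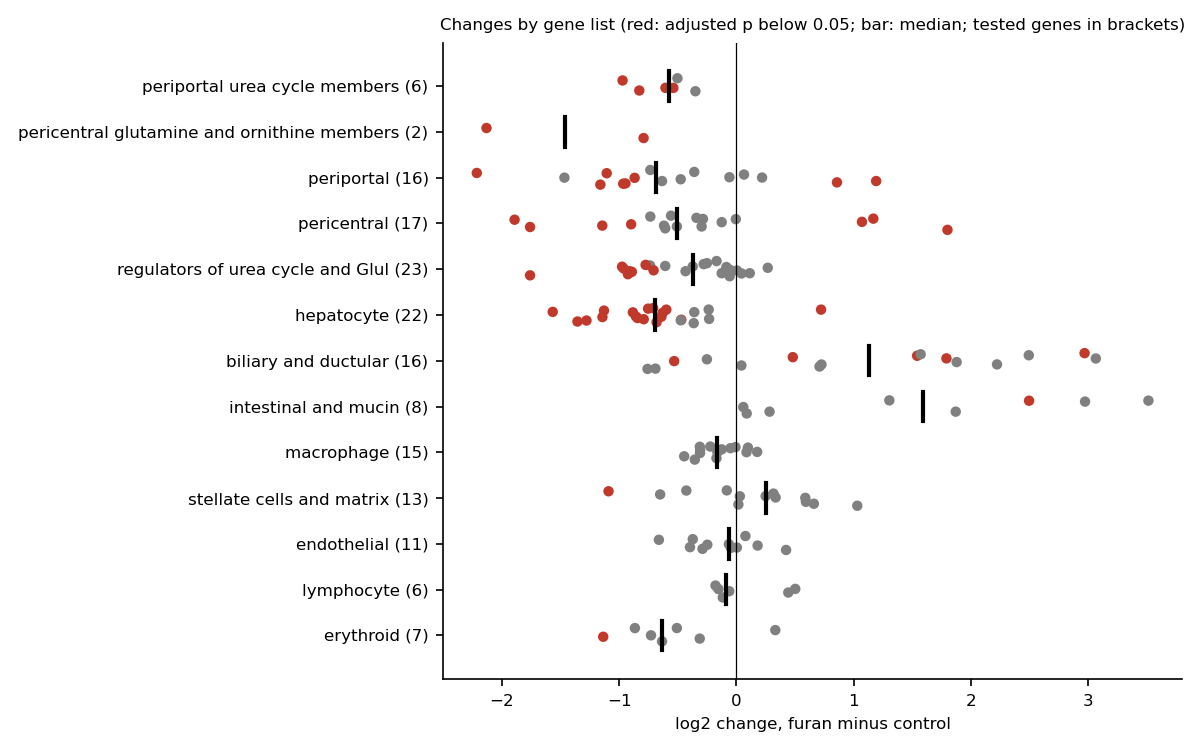
Change (log2, furan minus control) of each tested gene by list, with red points called at an adjusted p below 0.05, grey points not called, the black bar the median and the number of tested genes in brackets. The median was -0.57 for the 6 urea cycle genes and -0.70 for the hepatocyte list (-0.16 with quantile normalization). For the biliary list it was 1.13 (0.31 with normexp, 0.60 with only probes well above background on all 8 arrays). The rows also give Glul and Oat as the pericentral pair.

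For Cps1, Oat and Glul, the features whose profile over the 8 arrays lay nearest were sought among 11872 named features, by the root mean square difference of levels after each gene's control mean was subtracted. Near to Cps1 were Gprin3 (0.093 log2 units, change -0.58) and Prkce, a protein kinase C (0.096, change -0.66). Nearest to Oat were Loxl4, a lysyl oxidase-like enzyme (0.21, change -2.09), Cldn2, a tight junction claudin (0.34, change -2.14), and Hspb3, a small heat shock protein (0.36, change -2.14). Nearest to Glul were Rspo3 (0.17, change -0.91), Paqr7, a membrane progestin receptor (0.17, change -0.73), and Nr2f2, an orphan nuclear receptor (0.18, change -0.70). Rspo3 shared with Glul a low control array 4, at -3.32 against -2.75 to -2.50 on the other controls. All these features were picked by the same 8 values, so their likeness in single arrays and in change follows from the choice. Without single arrays the calls of Gprin3, Prkce and Paqr7 were lost, the first pair without furan array 2 or 4 or control array 2, 3 or 4 (changes from -0.57 to -0.46 for Gprin3 and from -0.67 to -0.50 for Prkce), and Paqr7 without furan array 1 or 2 or control array 1 or 2 (from -0.68 to -0.61).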

How the data were processed

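Per the file headers, the arrays were read in 1 colour (Cy3), and per the submitters' processing notes the authors used Agilent Feature Extraction 10.7. The deposited scanner output holds for each spot an intensity from which that software had already taken the background. The deposited series table equals that intensity times 1 factor per array, which sets the 75th percentile near 1000. Of the 30367 probes, 170 without a usable spot on some array were left out, after spots marked as outliers were removed. Levels were computed from the deposited intensities as log2 of the processed signal minus the 75th percentile of the array, averaged over spots.

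Probes well above background, in the majority of their spots, on all 4 arrays of at least 1 group were tested (19623), and the brightest was kept per gene (17226 features). Names came through transcript identifiers in a reference gene table (18438 probes), current symbols (3168), synonyms (419) or the array annotation (170), and 8172 probes stayed unnamed. limma 3.58.1 in R 4.3.3 (lmFit and eBayes without trend, two-sided) gave changes, and adjusted p were taken over all features. The fit was checked on simulated data.

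The genes and lists were chosen with earlier results of these data known. Named were all 10 genes, up to 4 called genes of each list in its commoner direction and 2 in the other (or the smallest p), the 3 nearest profiles of Cps1, Oat and Glul, and Cyp2e1, Cyp7a1 and Krt19. Alternatives changed the background correction, scaling, filter, probe summary, outlier spots, variance model, slide or replicate block, or left out arrays. The design text counts 4 rats per group, and p-values measure the spread between these animals and arrays. Same-numbered arrays did not deviate together. Values of some genes that these rules name are not reported here.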

Additional observations from a re-analysis of the deposited data

Results flagged for a closer look

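Of 142 groups of 4 arrays examined for the named genes, 7 held a value far from the other 3, and chance gives about 1 in 20. None of the 20 groups of the 10 genes was among them. Paox was 3.95 on furan array 4, against 3.75 to 3.76 on the other furan arrays. Nr3c1 was -1.74 on furan array 3, against -1.94 to -1.91. Fga was 6.73 on furan array 2, against 7.08 to 7.15. Gcgr was 3.41 on control array 4, against 3.25 to 3.28 on the other control arrays. Nr2f2 was -1.67 on control array 4, against -1.19 to -1.10, where Glul was low as well. Its profile was picked for nearness to Glul on these arrays, so this likeness follows from the choice. Cd24, a marker of biliary cells, was 0.017 on control array 2, against -3.00 to -2.82. Cd14, a macrophage marker, was 3.33 on control array 1, against 2.79 to 2.81.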

How the results depend on the processing

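Over the settings run, Otc, Ass1 and Oat were called in 20 of 20 alternatives, while Cps1 was called in 8, Glul in 13, Asl in 12, Arg1 in 5, Gls2 in 4 and Nags in 0, and the change stayed negative throughout for all 10. Of the 10 genes, 4 were called with no filter on dim probes and 4 with control array 2 and furan array 1 left out, and between 4 and 7 when a single array was left out. Calls over all features fell in these settings too. They numbered 4384 of 26439, 4959 of 17226, and between 4254 and 6050 of 17226, in that order, against 6122 of 17226 in the main setting. Scaling to the median of each array left 3889 features called, against 6122. With normexp, 33.5% of calls were higher, against 50.6%, the median of all features was -0.16, and the change of Slc25a2 was -0.81. Direction turned with normexp for Otc minus Glul (0.016) and Lck (-0.12). That of Krt19 turned without furan array 1 (-0.19) and not with normexp (0.40), and its change reached 1.75 without control array 2. The replicate block left 4734 features and 5 of the 10 genes called, and furan array 1 correlated better with control array 2 (0.53) than with its own number (-0.30). Causes of these moves were not tested. Slc25a2 lies near background, where signal limits the fold.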
